A study of Mus musculus with 12 samples.

Results

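Heat-shock proteins and their co-chaperones were described in 12 RNA sequencing libraries of sorted mouse cells. The set held every gene whose symbol is Hspa, Hspb, Hspd, Hspe, Hsph, Dnaja, Dnajb or Dnajc followed by a digit, every symbol that begins with Hsp90, and Ptges3, Stip1, Ahsa1, Bag3 and Hsf1, which were added by name. It came to 78 of the 55809 symbols counted, after 15 pseudogene or antisense symbols were dropped. The libraries form 4 groups of 3. TOM+ and TOM- cells came from untreated Mc4r-Cre; Ai14 mice at 4 weeks of age, in which the hypothalamus was taken. AAV-Cre and AAV-GFP cells came from Otp fl/fl; Ai14 mice at 26 weeks of age, in which the PVH, a hypothalamic nucleus, was taken 12 weeks after an adeno-associated virus (AAV) was injected. AAV-Cre cells were gated on the TOM reporter and AAV-GFP cells on GFP, so the gates differ as well as the virus. All 4 groups carry the Ai14 reporter, whose red protein marks any cell in which Cre has acted at some time, and both AAV groups carry the floxed Otp allele. Cre is driven from the Mc4r gene in the TOM mice and delivered by virus in the others. No label ties a library to an animal, so each p-value reflects the spread among the libraries at hand, and that spread may be technical.

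Heat-shock proteins are chaperones, which keep other proteins folded or help them to refold. The HSP70 proteins (Hspa genes) hold unfolded stretches tightly after ATP hydrolysis, which J-domain proteins (Dnaj genes) trigger. They release them when new ATP binds, once nucleotide exchange factors such as the Hsph proteins have freed the ADP. HSP90 takes over partly folded clients, small heat-shock proteins (Hspb) hold unfolded proteins without ATP, and the transcription factor HSF1 induces many of these genes when unfolded proteins accumulate. HSF1 binds repeats of the letters GAA in alternating orientation. Some members are instead made constantly, among them Hspa8 and Hsp90ab1 in the cytosol, Hspa5 and Hsp90b1 in the endoplasmic reticulum, and Hspa9, Hspd1 and Hspe1 in mitochondria. Ptges3 encodes p23, the co-chaperone that binds the closed form of HSP90. The other members were chosen by symbol, but Ptges3 was selected on its measured fold changes, which were opposite in the TOM and AAV comparisons. Its values are therefore a description with no test, and it is left out of every count of members tested, called or compared between groups. The other 77 members are the ones counted there. Ranks, shares of a library's counts, and counts of promoter windows and shared exons take all 78.

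Sequences upstream of some members that hold an element described below are printed first, because many of the members that differed are genes that heat shock is known to induce. The printed sequences include those of Dnaja4, Dnajb6, Hspe1 and Hspa5, which passed the test below in neither comparison. They are RefSeq sequences of the GRCm38.p6 build, read 5′ to 3′ on the gene's strand for the first 3 and on the strand given for the rest. The 250 bases before to 50 bases after each start site were searched on both strands for the 2-unit heat-shock element GAANNTTC. They were also searched for the same units in the other order, TTCNNGAA. The same windows were searched for a 3-unit element, GAANNTTC followed by any 2 bases and a further GAA, which contains the shorter letters, so a hit to it is also a hit to them. Windows were found for 62 of the 78 members. Hspa1a and Hspa1b, the heat-inducible HSP70 genes, lie close together on chromosome 17. Their last 150 bases before the start site differ at 1 base, an identity of 99.3%. Capitals mark the fixed letters of GAANNTTC.
Hspa1a (chr17:34972157-34972306, minus strand): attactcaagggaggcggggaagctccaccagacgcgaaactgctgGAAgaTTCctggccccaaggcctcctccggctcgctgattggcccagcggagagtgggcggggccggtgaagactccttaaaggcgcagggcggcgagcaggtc
Hspa1b (chr17:34959239-34959388, minus strand): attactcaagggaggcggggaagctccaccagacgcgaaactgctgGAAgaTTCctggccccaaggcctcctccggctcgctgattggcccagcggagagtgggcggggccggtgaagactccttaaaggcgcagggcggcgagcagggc
Hspb1 (chr5:135887769-135887918, plus strand): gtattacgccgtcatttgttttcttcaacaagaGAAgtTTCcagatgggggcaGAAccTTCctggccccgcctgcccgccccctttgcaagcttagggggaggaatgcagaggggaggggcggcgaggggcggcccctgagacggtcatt
Shorter sites of 30 bases show the same letters in Dnaja1 and Dnaja4, the 3-unit element in Dnajb6, and a longer run of alternating units in the shared promoter from which Hspd1 and Hspe1 are read in opposite directions. In the Hspe1 site the capitals also mark a further TTC unit next to the 3-unit element.
Dnaja1 (chr4:40722333-40722362, plus strand): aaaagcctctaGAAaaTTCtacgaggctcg
Dnaja4 (chr9:54699458-54699487, plus strand): ggaacctccgcGAAcgTTCtgggcctatgt
Dnajb6 (chr5:29735844-29735873, plus strand): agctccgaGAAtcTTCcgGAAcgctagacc
Hspe1 (chr1:55088053-55088082, plus strand): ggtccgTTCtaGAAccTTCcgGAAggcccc
The genes of the endoplasmic reticulum chaperones BiP (Hspa5) and GRP94 (Hsp90b1) hold another element, CCAAT and CCACG with any 9 bases between them, known for the unfolded protein response. Capitals mark its fixed letters, which read on the opposite strand in the Hsp90b1 site.
Hspa5 (chr2:34772020-34772049, plus strand): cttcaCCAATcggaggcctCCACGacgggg
Hsp90b1 (chr10:86705527-86705556, minus strand): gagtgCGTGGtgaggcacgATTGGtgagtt
GAANNTTC was found in 15 of 62 members (24.2%) and in 9.04% of all 27025 genes with a window. The other order, TTCNNGAA, was found in 6 of 62 members (9.68%), near its share of 9.60% of all genes. The 3-unit element was found in 4 of 62 members (Dnajb6, Hspd1, Hspe1 and Hsph1, 6.45%) and in 0.662% of all genes, and the endoplasmic reticulum element in Dnajc3, Hsp90b1 and Hspa5 against 0.137% of all genes. A match is a description of the letters, not a site shown to be bound.

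Levels are compared between genes per length, as reads scaled to exon length and library depth (RPKM), in the order TOM+, TOM-, AAV-Cre and AAV-GFP. The TOM and AAV libraries were scaled separately, so levels set across them carry no test. Hspa8, the constitutive cytosolic HSP70, was the most abundant of the 78 members in all 4 groups, with mean RPKM levels of 457, 524, 537 and 459. Hsp90ab1, the constitutive HSP90, was second in all 4, with mean RPKM levels of 398, 326, 381 and 381. Below these the order differed between groups. Hsp90aa1, the inducible HSP90, ranked 4, 15, 5 and 3, with mean RPKM levels of 149, 36.4, 115 and 165. Hspa1b ranked 31, 7, 4 and 24, with mean RPKM levels of 13.7, 69.7, 143 and 26.7, and Hspa1a ranked 36, 6, 6 and 20. The inducible HSP70 genes thus stood among the top 7 members in TOM- and AAV-Cre cells and outside the top 19 in the other 2 groups. The highest level per length in the other subfamilies was that of Hspb1, Hspe1, Dnaja1, Dnajb1 and Dnajc8, averaged over the 12 libraries. All members together took between 0.777% and 1.12% of a library's counts.

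In the TOM libraries the members moved in both directions, and the split ran inside the Hspa and Hsph, Dnajb and Dnajc subfamilies. In Hspb the members called all fell, and in Hsp90 and Dnaja they all rose. The stress-inducible Hspa1a, Hspa1b, Hspb1, Dnajb1 and Bag3 were lower in TOM+ cells. Hsp90aa1, Hsph1 and Dnaja1, which are listed as heat-inducible too, were higher, as were Hspa4l and Dnajb4. Counts scaled to library depth with the TMM factors of edgeR (CPM) are used for each gene across libraries, and a member is said to rise or fall where the adjusted p of edgeR's quasi-likelihood test over all genes was below 0.05. Of the 77 members, 69 had enough counts to be tested. Of these, 10 rose (14.5%) and 8 fell (11.6%) in TOM+ cells, beside 10.4% higher and 13.4% lower of the 15228 genes tested. The share called in either direction, 26.1%, lay near the 23.9% of all genes tested. Groups did not overlap for 18 members higher and 16 lower in TOM+, beside 20.8% and 25.6% of all genes (46.4% in either direction). The median log2 fold change of the tested members was 0.17, against -0.02 over all genes. Because the cells were sequenced in bulk, fewer cells of a type and less RNA per cell cannot be told apart.

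**Figure D1:**
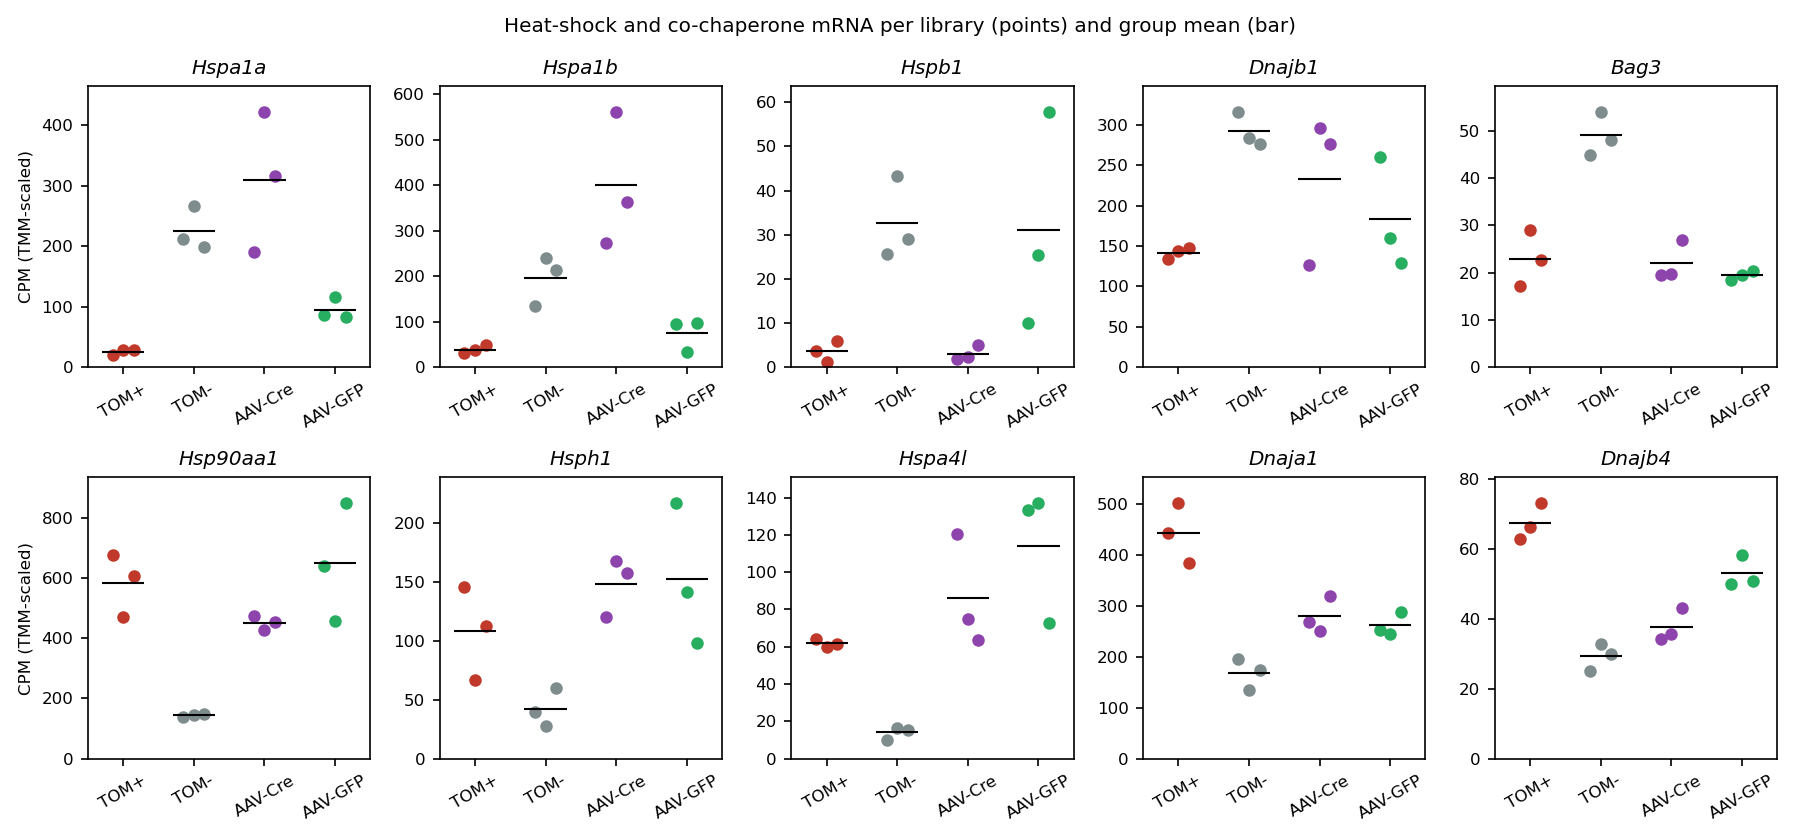
CPM of 10 members in all 12 libraries, on axes from 0, with a point per library and a bar at each group mean. In the upper row TOM+ lies below TOM- for all 5 genes, and in the lower row above it. Only Hspa1a and Hspa1b also separate AAV-Cre from AAV-GFP upward among these 10.

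Among the HSP70 genes, the inducible Hspa1a and Hspa1b were the ones that fell. Hspa1a (chr17:35188166-35191132, minus strand, GENCODE vM30 as the files give it) stood at 19.6, 28.1 and 28.6 CPM in the 3 TOM+ libraries. In the TOM- libraries it stood at 212, 266 and 199 CPM. The groups did not overlap, and the log2 fold change was -3.15 ± 0.23 (estimate ± SE; edgeR adjusted p = 0.000256). Hspa1b (chr17:35175412-35178214, minus strand) read 30.4, 37.6 and 47.4 CPM in TOM+ and 134, 240.0 and 213 CPM in TOM- libraries. Its log2 fold change was -2.34 ± 0.28 (edgeR adjusted p = 0.00181), again without overlap. These 2 genes are near-identical copies, so reads that fit both cannot be assigned and the split between them is uncertain. Hspa1a also shares 564 exon bases with Gm20481 on the opposite strand. The constitutive Hspa8 had 1897, 1892 and 2103 CPM in TOM+ and 2289, 2302 and 2169 CPM in TOM- libraries. Its groups did not overlap either, but its log2 fold change of -0.20 ± 0.12, whose sign changed without scaling factors, did not pass (edgeR adjusted p = 0.272). Within a library, Hspa1a per Hspa8 in RPKM was 0.0150, 0.0216 and 0.0197 in TOM+ and 0.134, 0.168 and 0.133 in TOM- cells, 7.77-fold lower. The ratios given here and below were chosen after their values were seen, so they have no test.

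Hspb1, the small heat-shock protein HSP27, stood at 3.64, 1.09 and 5.96 CPM in TOM+ and 25.6, 43.3 and 28.97 CPM in TOM- libraries. Its log2 fold change was -3.19 ± 0.64 (edgeR adjusted p = 0.0125), and the call was lost without TOM- library 2 (adjusted p = 0.0624). Hspb8, which works with Bag3 to send misfolded proteins to autophagy, had 7.65, 21.3 and 9.78 CPM in TOM+ and 36.97, 37.1 and 41.03 CPM in TOM- libraries. Every TOM- value of both genes lay above every TOM+ value. Hspb8 fell with a log2 fold change of -1.57 ± 0.43 at an edgeR adjusted p of 0.0355. Hspb3, a small heat-shock protein known from muscle, had 5, 0 and 0 counts in TOM+ and 144, 145 and 142 counts in TOM-. Its fitted log2 fold change of -6.38 ± 1.64 (edgeR adjusted p = 0.0290) depends on how counts of 0 are treated. Of the 6 tested Hspb genes, these 3 fell and none rose, beside 13.4% of all genes lower, with a median log2 fold change of -0.80. Dnajb1, the main J-domain partner of inducible HSP70, had 134, 144 and 147 CPM in TOM+ and 317, 283 and 277 CPM in TOM- libraries. Both groups were tight and apart, with a log2 fold change of -1.04 ± 0.14 at an edgeR adjusted p of 0.00253. Bag3, the HSP70 exchange factor, had 17.2, 28.96 and 22.7 CPM against 44.9, 54.1 and 48.2 CPM, a log2 fold change of -1.10 ± 0.27 at an edgeR adjusted p of 0.0256. Dnajc16, a membrane J-domain protein, fell from 16.7 ± 3.88 to 4.92 ± 0.640 CPM (mean ± SD, n = 3; log2 fold change -1.76 ± 0.42, edgeR adjusted p = 0.0230). Bag3 and Hspb8 lost their calls without any TOM- library or without TOM+ library 1 or 3 (edgeR adjusted p up to 0.104 and 0.105). Hspb3 lost its call without any TOM- library or TOM+ library 3, and Dnajc16 without any TOM- library or TOM+ library 1 (edgeR adjusted p up to 0.0956 and 0.0818).

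The members that rose in TOM+ cells included the inducible HSP90 and 2 exchange factors of HSP70. Hsp90aa1 (chr12:110657039-110669162, minus strand) stood at 677, 469.5 and 607 CPM in TOM+ libraries. In TOM- libraries it stood at 139, 143 and 147 CPM, below every TOM+ value. Its log2 fold change was 2.03 ± 0.17 (edgeR adjusted p = 0.000440). The constitutive Hsp90ab1 had 1237, 1020.1 and 1324 CPM against 989.7, 995 and 948 CPM, and its log2 fold change of 0.29 ± 0.14 did not pass (edgeR adjusted p = 0.186). Hsp90aa1 per Hsp90ab1 in RPKM was 0.417, 0.351 and 0.350 in TOM+ and 0.107, 0.110 and 0.118 in TOM- cells, 3.33-fold higher. Hspa4l, an Hsp110-type exchange factor, had 64.4, 59.6 and 61.6 CPM in TOM+ and 10.1, 16.6 and 15.4 CPM in TOM- libraries. The TOM+ values were close to each other and all above the TOM- values, with a log2 fold change of 2.14 ± 0.27 at an edgeR adjusted p of 0.00216. Its relative Hspa4, named here after its values were seen, had a log2 fold change of -0.03 ± 0.35, and Hspa4l per Hspa4 in RPKM was 4.92-fold higher in TOM+ cells. Hsph1, which encodes HSP110, had 146, 66.5 and 112 CPM in TOM+ and 39.6, 28.1 and 59.8 CPM in TOM- libraries. It rose with a log2 fold change of 1.35 ± 0.37 at an edgeR adjusted p of 0.0377. Its groups did not overlap, but the call was lost without TOM+ library 1 or 3 or TOM- library 1 or 2 (edgeR adjusted p up to 0.131).

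Among the J-domain genes that rose, Dnaja1, a farnesylated partner of Hspa8, had 443, 502 and 385 CPM in TOM+ and 196, 134 and 174 CPM in TOM- libraries. The groups did not overlap, and the log2 fold change was 1.40 ± 0.19 (edgeR adjusted p = 0.00286). Its exons share 608 bases with Smu1, and reads there cannot be assigned without strand. Dnajb4, a cytosolic relative of Dnajb1, had 62.9, 66.2 and 73.1 CPM against 24.95, 32.8 and 30.03 CPM, a log2 fold change of 1.20 ± 0.21 at an edgeR adjusted p of 0.00748. Dnaja1 per Dnajb1 in RPKM was 1.22, 1.29 and 0.971 in TOM+ and 0.230, 0.176 and 0.233 in TOM- cells, 5.47-fold higher. Dnaja1 thus stood above Dnajb1 per length in 2 of 3 TOM+ libraries and below it in all 3 TOM- libraries. Dnajc6, the auxilin that uncoats clathrin vesicles in neurons, had 28.5, 20.04 and 42.3 CPM in TOM+ and 1.41, 6.68 and 9.72 CPM in TOM- libraries. It rose with a log2 fold change of 2.35 ± 0.70 at an edgeR adjusted p of 0.0475. Dnajb2, a J-domain protein abundant in neurons, had 296, 293 and 353 CPM against 242, 203 and 165 CPM, a log2 fold change of 0.63 ± 0.18 at an edgeR adjusted p of 0.0442. Dnajc21, a factor of ribosome maturation, and Dnajc18 rose with log2 fold changes of 1.97 ± 0.58 and 0.74 ± 0.19 (edgeR adjusted p = 0.0465 and 0.0321). All 4 lost their calls in some fits that left out a library. Dnajc6 was lost without TOM+ library 1 or 3 or TOM- library 2 or 3. Dnajb2 was lost without any TOM+ library or TOM- library 2 or 3. Dnajc21 was lost without TOM+ library 1 or 2 or any TOM- library, and Dnajc18 without any TOM+ library or TOM- library 1 or 2. The edgeR adjusted p in these fits reached 0.139 for Dnajc6, 0.144 for Dnajb2, 0.140 for Dnajc21 and 0.131 for Dnajc18. Dnajb2 was also lost with RLE factors (edgeR adjusted p = 0.0535) and without the count filter (0.0627), and Dnajc18 and Dnajc21 without the filter (0.0566 and 0.0578). Dnajc8, a splicing-related member and the most abundant Dnajc gene per length, had a log2 fold change of 0.29 ± 0.25 at an edgeR adjusted p of 0.454.

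**Figure D2:**
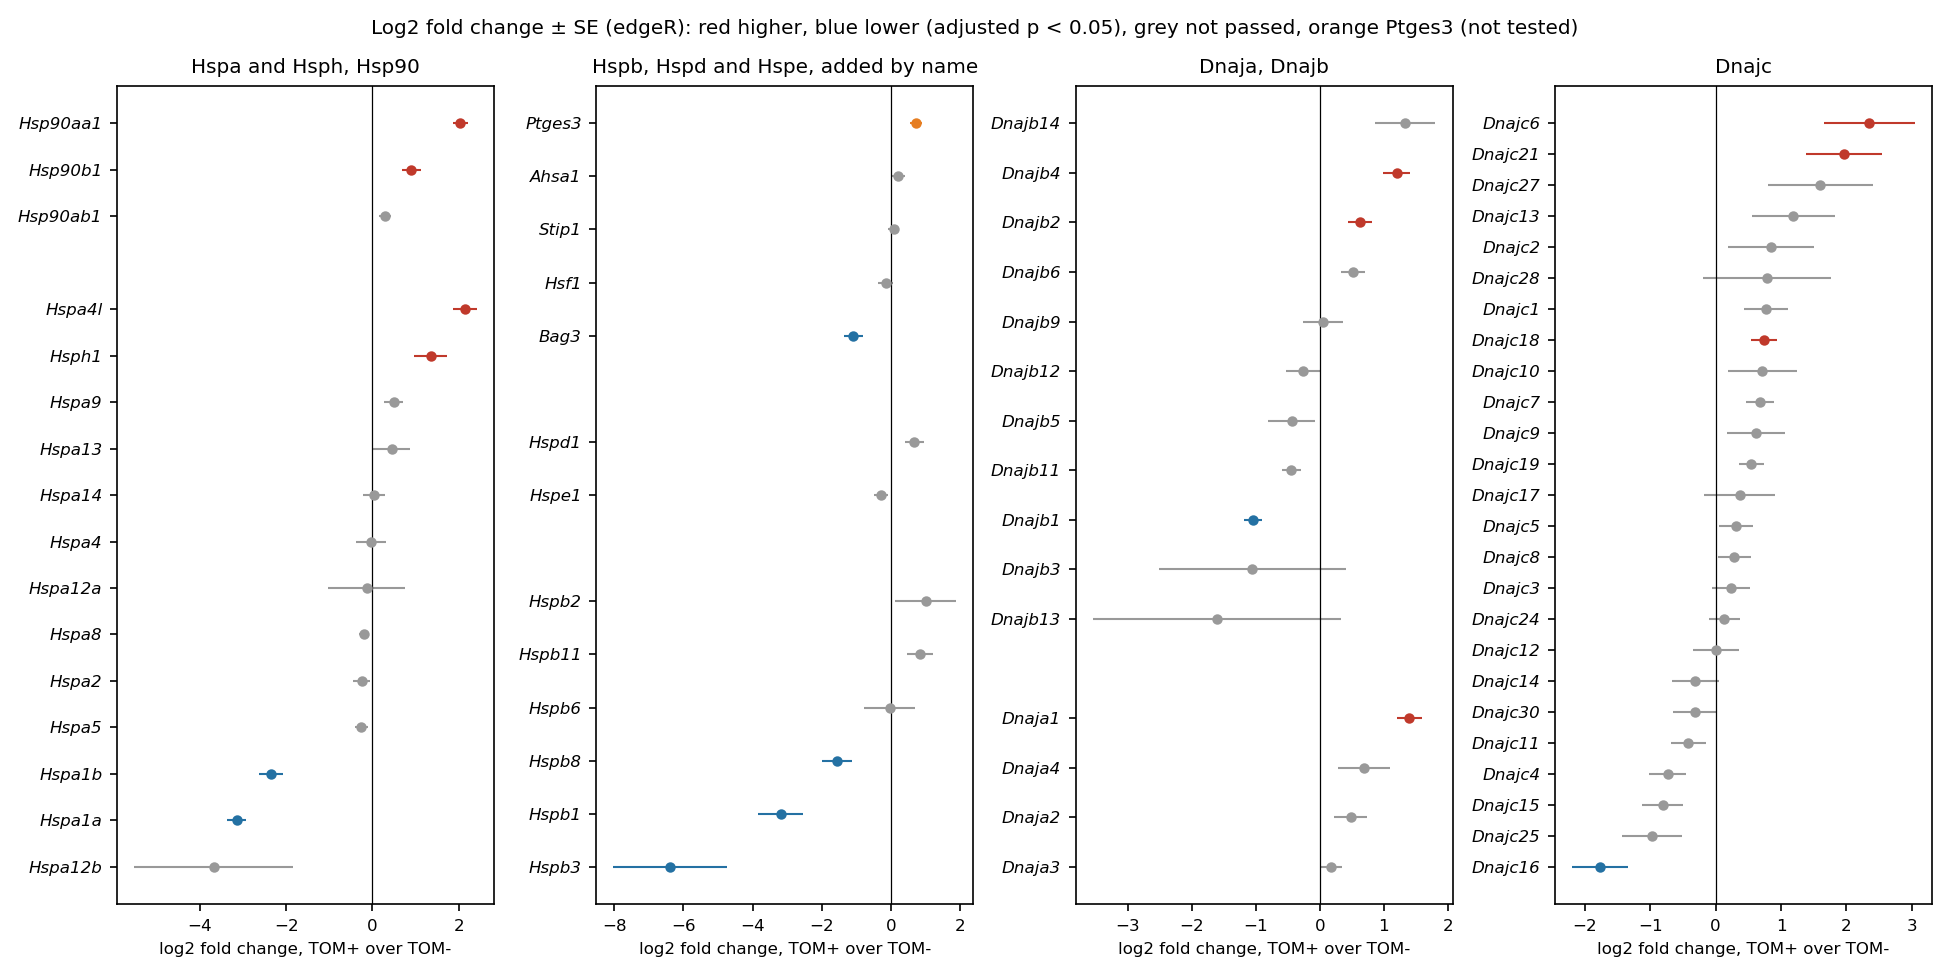
Log2 fold change of TOM+ over TOM- for 69 of the 70 members with a fit, Ptges3 included, in 4 panels by subfamily, with bars of 1 SE from edgeR and a line at 0. The 10 members that rose are red and the 8 that fell are blue. Hspa and Hspb hold the largest falls, and both directions occur in the Hspa and Hsph, Dnajb and Dnajc panels.

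Of 8 members of the endoplasmic reticulum and 8 of mitochondria, Hsp90b1 alone passed, beside 23.9% of all genes called. It stood at 442, 423 and 389 CPM in TOM+ and 165, 213 and 296 CPM in TOM- libraries. Its log2 fold change was 0.90 ± 0.22 (edgeR adjusted p = 0.0254), and the call was lost when any library other than TOM- library 3 was left out (adjusted p up to 0.104). Hspa5, named here after its values were seen, had 808, 1141 and 1079 CPM against 1241, 1192 and 1179 CPM, with every TOM+ value below every TOM- value, though the sign changed without scaling factors (log2 fold change -0.25 ± 0.16, edgeR adjusted p = 0.300). Hsp90b1 per Hspa5 in RPKM was 2.31-fold higher in TOM+ cells, and both promoters hold the endoplasmic reticulum element printed above. Hsp90b1 shares 415 exon bases with 1810014B01Rik. Among the mitochondrial members, Hspd1 (HSP60) and its lid Hspe1 (HSP10) are read from 1 promoter, with log2 fold changes of 0.67 ± 0.28 and -0.29 ± 0.21 (edgeR adjusted p = 0.134 and 0.357). Hspd1 per Hspe1 in RPKM was 1.05, 0.724 and 1.16 in TOM+ and 0.525, 0.360 and 0.610 in TOM- cells, so the ratio did not overlap between groups.

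Of the genes added by name and tested, Bag3 passed and Hsf1, Stip1 and Ahsa1 did not. Hsf1, which encodes the factor itself, had 48.95, 55.5 and 44.01 CPM in TOM+ and 47.2, 62.3 and 56.6 CPM in TOM- libraries. Its groups overlapped, with a log2 fold change of -0.16 ± 0.21 at an edgeR adjusted p of 0.626. Stip1 (HOP), which bridges HSP70 and HSP90, and Ahsa1 (AHA1), which stimulates the HSP90 ATPase, had log2 fold changes of 0.07 ± 0.15 and 0.21 ± 0.19 (edgeR adjusted p = 0.788 and 0.473). Ptges3 had 167, 173 and 149 CPM in TOM+ and 115, 88.1 and 93.8 CPM in TOM- libraries, all higher in TOM+. Of 14 members listed as heat-inducible, 3 rose (Hsp90aa1, Hsph1 and Dnaja1) and 5 fell (Hspa1a, Hspa1b, Dnajb1, Hspb1 and Bag3). Over all genes 10.4% were higher and 13.4% lower. The 6 that did not pass were Hspa8, Hsp90ab1, Hspd1, Hspe1, Stip1 and Ahsa1. Of these, Hspa8, Hsp90ab1, Hspd1 and Hspe1 are given above as made constantly. The median log2 fold change of the list was -0.06. The summed level of the 14 was 4703 to 5453 CPM in TOM+ and 4746 to 4971 CPM in TOM- libraries, so the sums overlapped. Hspa8 and Hsp90ab1 made up much of the sum, at 1892 to 2103 and 1020.1 to 1324 CPM in TOM+ libraries. GAANNTTC was in 6 of the 8 members that fell (Bag3, Hspa1a, Hspa1b, Hspb1, Hspb3 and Hspb8), beside 8.24% of all 1554 genes with a window that fell. Hspa1a and Hspa1b, whose promoters are nearly identical, count as 2 of these 6. GAANNTTC was in 2 of the 8 members with a window that rose (Dnaja1 and Hsph1), beside 6.63% of such genes. Among members with a window that did not pass, it was in 6 of 39, beside 6.80% of such genes. Genes on both sides of the split thus hold GAANNTTC. The 6 members with TTCNNGAA included Dnajb4 and Hsph1, which rose, and the rest did not pass.

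**Figure D3:**
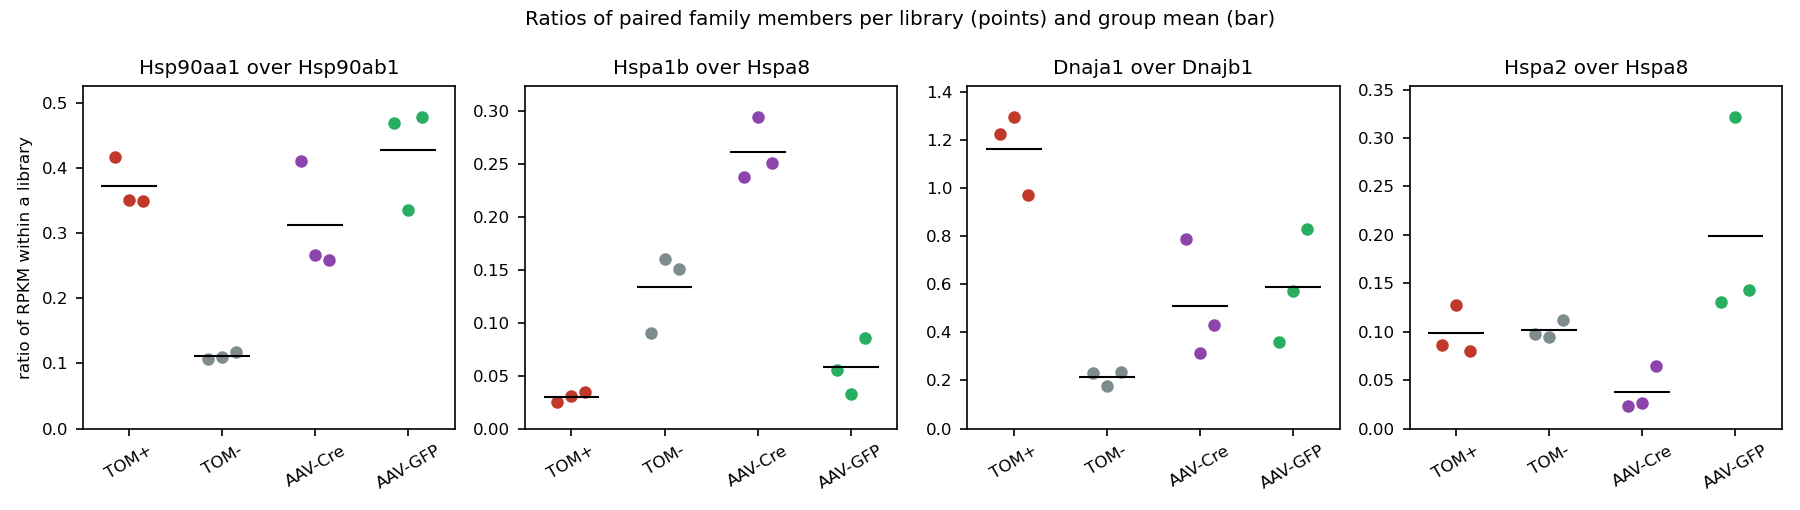
Ratio of RPKM between 2 members within each library, on axes from 0, with a point per library and a bar at the group mean. Hsp90aa1 over Hsp90ab1 and Dnaja1 over Dnajb1 separate TOM+ above TOM-, and Hspa1b over Hspa8 separates both pairs of groups in opposite directions. Hspa2 over Hspa8 separates only AAV-Cre below AAV-GFP.

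Other chaperone genes, which are no members, were counted in lists by function. Of 17 tested HSP90 co-chaperones outside the set, 5 rose and 2 fell in TOM+ cells, beside 10.4% and 13.4% of all genes. The 5 became 2 without TOM- library 1 or 3 and 3 without TOM+ library 3. The largest rise was that of Cdc37l1, a relative of the kinase adaptor Cdc37, with 248, 321 and 266 CPM in TOM+ and 55.5, 40.7 and 58.5 CPM in TOM- libraries (log2 fold change 2.43 ± 0.21, edgeR adjusted p = 0.000439). Of 11 HSP70 exchange factors and Hip, 2 fell (Sil1 and Hspbp1) and none rose, beside 13.4% of all genes lower and 10.4% higher. When any library other than TOM- library 3 was left out, 1 fell. Of 14 subunits of the chaperonin TRiC and prefoldin, 2 rose and 1 fell, beside 10.4% and 13.4% of all genes. The fall was lost when any library was left out, and 1 rise was lost without TOM- library 2. Vbp1, a prefoldin subunit, led (log2 fold change 2.11 ± 0.18, edgeR adjusted p = 0.000479). Cryab, the small heat-shock protein alpha B crystallin, rose with a log2 fold change of 0.90 ± 0.22 at an edgeR adjusted p of 0.0247, opposite in sign to Hspb1 and Hspb8. That call was lost without TOM+ library 1 or 3 or TOM- library 2 or 3. Of 18 genes of the unfolded protein response, 10 fell and none rose, beside 13.4% of all genes lower, with a median log2 fold change of -0.67. Without TOM- library 2 the 10 became 6, and without TOM- library 3 there was 1 that rose. Xbp1, a transcription factor of that response, had 152, 149 and 164 CPM in TOM+ and 469, 512 and 475 CPM in TOM- libraries (log2 fold change -1.65 ± 0.13, edgeR adjusted p = 0.000358).

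Markers of cell types and states also differed in the TOM comparison, and their counts stand beside 10.4% of all genes higher and 13.4% lower. Immediate early genes, which cells transcribe within minutes of a stimulus, were lower in TOM+ cells for 12 of 12, with summed levels of 1234 to 1474 CPM against 12401 to 15421 CPM. Microglial markers were lower for 10 of 10 (418 to 982 CPM against 24826 to 29321 CPM) and blood markers for 5 of 5 (224 to 444 CPM against 22604 to 51385 CPM). Endothelial markers were lower for 3 of 7 tested (0 to 41.0 CPM against 191 to 299 CPM) and astrocyte markers for 1 of 7 (9455 to 13029 CPM against 18814 to 19865 CPM). The astrocyte count lay near the 13.4% of all genes lower. Oligodendrocyte markers were higher for 8 of 8, at 76279 to 86547 CPM against 18621 to 24567 CPM. Neuron markers were higher for 6 of 11 tested, at 416 to 497 CPM against 65.2 to 105 CPM. The oligodendrocyte sum lay far above the neuron sum in TOM+ and TOM- libraries alike, and the 2 sums cover different genes. The share of mitochondrial counts was 0.614% to 0.984% in TOM+ and 0.228% to 0.270% in TOM- libraries. The part of these differences in the chaperone values was not tested.

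The AAV comparison gave another pattern, in which Hspa1b rose in AAV-Cre cells and no other member passed. The targeted gene Otp had 12, 9 and 10 counts in the AAV-Cre and 91, 102 and 38 counts in the AAV-GFP libraries, the lower values being in AAV-Cre. Of the 69 members tested, 1 rose (1.45%, Hspa1b), beside 0.630% of the 15408 genes tested, and none fell, beside 1.97% of genes (2.60% in either direction). At an unadjusted edgeR p below 0.05 there were 4 members higher and 8 lower, beside 18.8% of all genes in either direction. DESeq2 called 2 of 72 members higher and 7 lower, beside 3.09% and 6.90% of the 18864 genes to which it gave an adjusted p. The groups did not overlap for 7 members higher in AAV-Cre, beside 9.85% of all genes, and for 11 lower, beside 18.6%, together 18 of 69 beside 28.5%. AAV-GFP library 3 stood apart in its share of mitochondrial counts, 7.20% against 1.44% to 2.63% in the other 5 libraries, and with mitochondrial genes removed the same 1 member was called. The median log2 fold change of the members was -0.15, and that of all genes was -0.16.

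**Figure D4:**
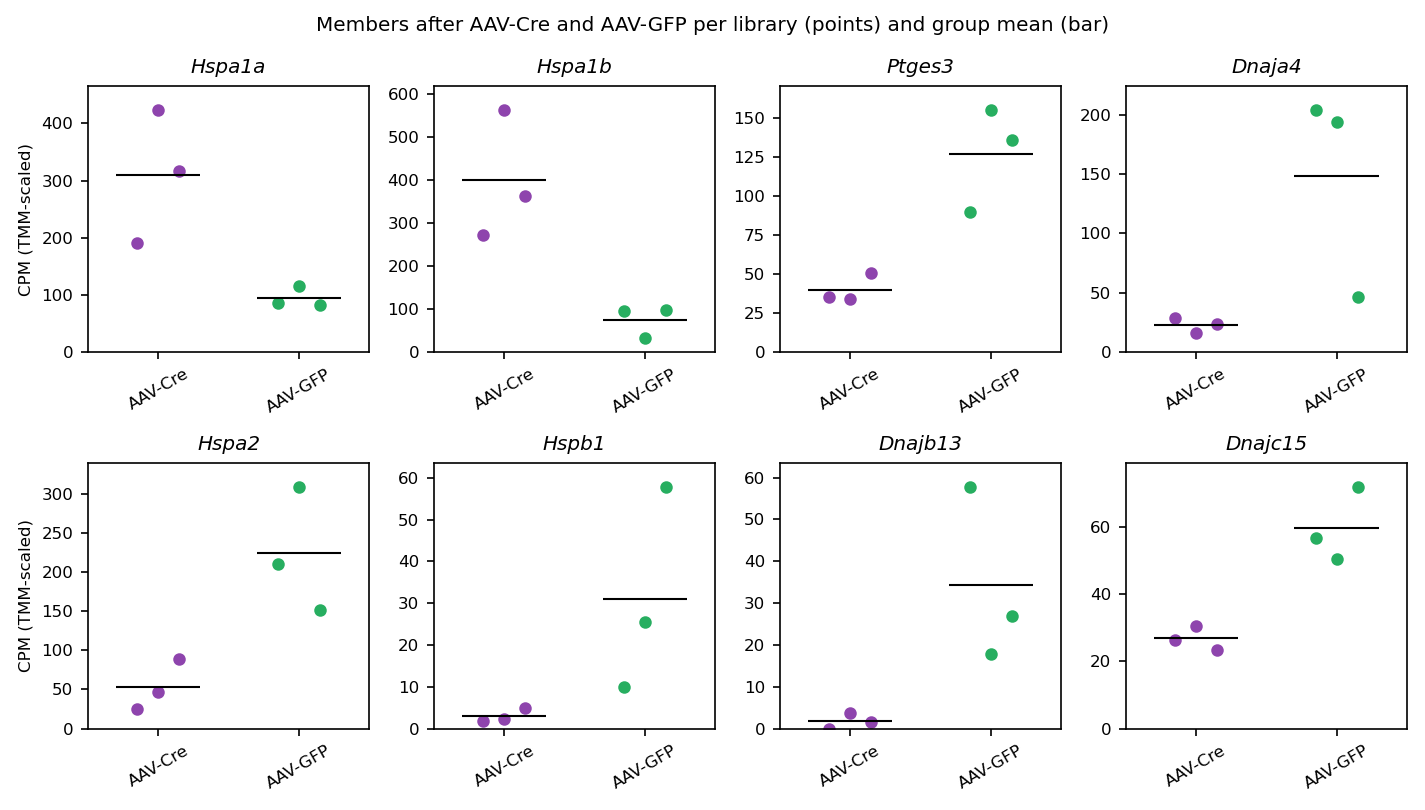
CPM of 8 members in the AAV libraries, on axes from 0, with a point per library and a bar at the group mean. All 3 AAV-Cre points lie above the AAV-GFP points for Hspa1a and Hspa1b and below them for the other 6 genes. Of these 8 genes, Hspa1b alone passed edgeR's test.

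Hspa1b stood at 273, 562 and 364 CPM in the AAV-Cre and 94.7, 33.3 and 96.8 CPM in the AAV-GFP libraries. The lowest AAV-Cre value lay well above the highest AAV-GFP value. The log2 fold change was 2.41 ± 0.49 with an edgeR adjusted p of 0.04997, at the edge of the threshold. The call was lost when any of the 6 libraries was left out, with adjusted p from 0.0626 without AAV-Cre library 1 to 0.162 without AAV-GFP library 3 and log2 fold changes from 2.05 to 2.72. Hspa1a had 190.4, 423 and 316 CPM in AAV-Cre and 85.6, 116 and 82.8 CPM in AAV-GFP libraries. Its groups did not overlap, but its log2 fold change of 1.71 ± 0.35 just missed the threshold (edgeR adjusted p = 0.0510). Without AAV-Cre library 1 it passed (adjusted p = 0.0453). Hspa1b per Hspa8 in RPKM was 0.238, 0.294 and 0.251 in AAV-Cre and 0.0553, 0.0327 and 0.0858 in AAV-GFP cells, 4.83-fold higher. Partners that are induced with these genes on heat shock did not separate the groups. Dnajb1 had 126, 296 and 277 CPM against 260.0, 159 and 129 CPM (log2 fold change 0.35 ± 0.41, edgeR adjusted p = 0.719). Bag3, Hsph1 and Dnaja1 had log2 fold changes of 0.18 ± 0.37, -0.04 ± 0.34 and 0.09 ± 0.24. Of the 14 heat-inducible members, 1 rose and 13 did not pass, beside 0.630% of all genes higher and 1.97% lower.

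Several members were on the lower side in AAV-Cre libraries without passing edgeR's main fit. Among them, Hspb1, Dnaja4, Hspa2 and Dnajb13 passed without the count filter and with DESeq2, and Dnajc15 passed with DESeq2. Ptges3 had 35.5, 33.8 and 50.3 CPM in AAV-Cre and 89.6, 155 and 136 CPM in AAV-GFP libraries, and Ptges3 per Hsp90ab1 in RPKM was 3.13-fold lower. Hspb1 had 1.81, 2.17 and 5.02 CPM against 10.03, 25.4 and 57.9 CPM, a log2 fold change of -3.37 ± 0.79 at an edgeR adjusted p of 0.0604. Without AAV-GFP library 3, which had the highest Hspb1 level, the log2 fold change was -2.48 (edgeR adjusted p = 0.264). Hspb1 was thus on the lower side in AAV-Cre cells while Hspa1a and Hspa1b were on the higher side. Dnaja4, Hspa2, Dnajb13, Dnajc15 and Dnajc13 were chosen for naming after their values were seen. Dnaja4, a J-domain gene inducible by stress in some tissues, had 28.6, 16.3 and 23.4 CPM in AAV-Cre and 204, 193 and 46.7 CPM in AAV-GFP libraries (log2 fold change -2.70 ± 0.57, edgeR adjusted p = 0.0528). AAV-GFP library 3 was far below the other two, though still above AAV-Cre, and without it the log2 fold change was -3.04 (edgeR adjusted p = 0.108). Dnaja4 shares 1581 exon bases with Wdr61 on the opposite strand. Hspa2, a HSP70 best known from testis, had 25.1, 46.9 and 88.8 CPM against 211, 309 and 152 CPM (log2 fold change -2.06 ± 0.51, edgeR adjusted p = 0.0672). Dnajb13, a protein of the radial spokes of cilia, had 0, 3.60 and 1.58 CPM against 57.8, 17.9 and 26.95 CPM (edgeR adjusted p = 0.127), and its exons share 305 bases with Ucp2. Dnajc15, of the mitochondrial inner membrane, had 26.5, 30.5 and 23.4 CPM against 56.7, 50.6 and 71.99 CPM (edgeR adjusted p = 0.0737). In the other direction, Dnajc13, an endosomal J-domain protein, had 32.5, 14.7 and 19.3 CPM against 11.1, 10.4 and 6.40 CPM (edgeR adjusted p = 0.239). Each of these 5 genes separated the groups without passing the threshold in the main fit.

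The abundant HSP90 and HSP70 genes did not separate the AAV groups. Hsp90ab1 had 880.4, 1216 and 1328 CPM in AAV-Cre and 1036, 1037 and 1353 CPM in AAV-GFP libraries. Hspa8 had 1762, 2936 and 2226 CPM against 2628, 1565 and 1731 CPM. Both genes overlapped between the groups, with log2 fold changes of -0.00 ± 0.28 and 0.23 ± 0.33. Hsp90aa1 had log2 fold change -0.52 ± 0.29 (edgeR adjusted p = 0.387), and its ratio to Hsp90ab1 overlapped between the groups. Hsf1, Stip1 and Ahsa1 had log2 fold changes of -0.15 ± 0.40, -0.29 ± 0.27 and -0.30 ± 0.25. Hspe1 was at 53.4, 39.7 and 46.2 CPM in AAV-Cre and 52.5, 81.9 and 113 CPM in AAV-GFP libraries, with overlap (log2 fold change -0.83 ± 0.34, edgeR adjusted p = 0.247). No gene of the other chaperone lists passed edgeR's test in this comparison, among 17 HSP90 co-chaperones, 11 HSP70 exchange factors, 14 TRiC and prefoldin subunits and 18 genes of the unfolded protein response. The summed levels of the HSP90 co-chaperones and of the HSP70 exchange factors were lower in every AAV-Cre library, at 1374 to 1611 against 1828 to 2044 CPM and at 655 to 756 against 952 to 967 CPM. The smallest adjusted p among the genes named by rule from those lists was that of the prefoldin subunit Pfdn2 (log2 fold change -1.46 ± 0.33, edgeR adjusted p = 0.0556).

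Markers of other cells also differed in the AAV comparison, and their counts stand beside 0.630% of all genes higher and 1.97% lower. Ependymal and tanycyte markers were lower in AAV-Cre cells for 3 of 6 tested, at 20.1 to 27.2 CPM against 771 to 1489.6 CPM, with Rax at 0 in all AAV-Cre libraries. Endothelial markers were lower for 2 of 6 (19.2 to 36.4 CPM against 136 to 197 CPM), with Cdh5, Emcn and Tie1 at 0 in AAV-Cre. Blood markers were lower for 2 of 5 (0.312 to 42.7 CPM against 707 to 4689.6 CPM), with Alas2 at 0 in AAV-Cre. Mural and fibroblast markers were lower for 1 of 6 (19.1 to 34.0 CPM against 83.2 to 101 CPM). Microglial markers were higher for 1 of 10 (5289 to 10408 CPM against 2638 to 4626 CPM). Oligodendrocyte markers were higher for 1 of 8 (47399.5 to 61120 CPM against 14396 to 53391.5 CPM) and their precursor markers for 1 of 5 (146 to 694 CPM against 68.1 to 164 CPM), with sums that overlapped. Astrocyte markers passed for 0 of 7. Immediate early genes were higher for 2 of 12, at 3401 to 7274 CPM against 1919.8 to 2834 CPM.  Neuron markers passed for 0 of 12, at 1997 to 2453 CPM against 1358 to 2375 CPM. Genes without any count numbered 38821 to 41062 per AAV-Cre and 31907 to 35031 per AAV-GFP library. The part of these differences in the chaperone values was not tested.

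The comparisons share no library, so their values can be set side by side for the 68 members tested in both. The sign of the log2 fold change was the same for 34 members and opposite for 34, with 24 of the latter higher in TOM+ and lower in AAV-Cre. Pearson's correlation across these genes was 0.20, as a description, since genes are not independent replicates. Groups did not overlap in either comparison for 11 of the 68 members, beside 14.0% of the 13975 genes tested in both. Of these, Hspa1a, Hspa1b and Dnajc11 were lower in TOM+ and higher in AAV-Cre, and Dnajb4 and Hspb11 the reverse. Hspb1, Hspa12b, Dnajc15 and Dnajc25 were lower in both, and Dnajb2 and Dnajc18 higher in both. Only Hspa1b passed the test in both comparisons, at log2 -2.34 ± 0.28 and 2.41 ± 0.49. The members named in the last sentences other than Hspa1a, Hspa1b, Hspb1, Dnajb2, Dnajb4 and Dnajc18 were chosen after their values were seen.

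**Figure D5:**
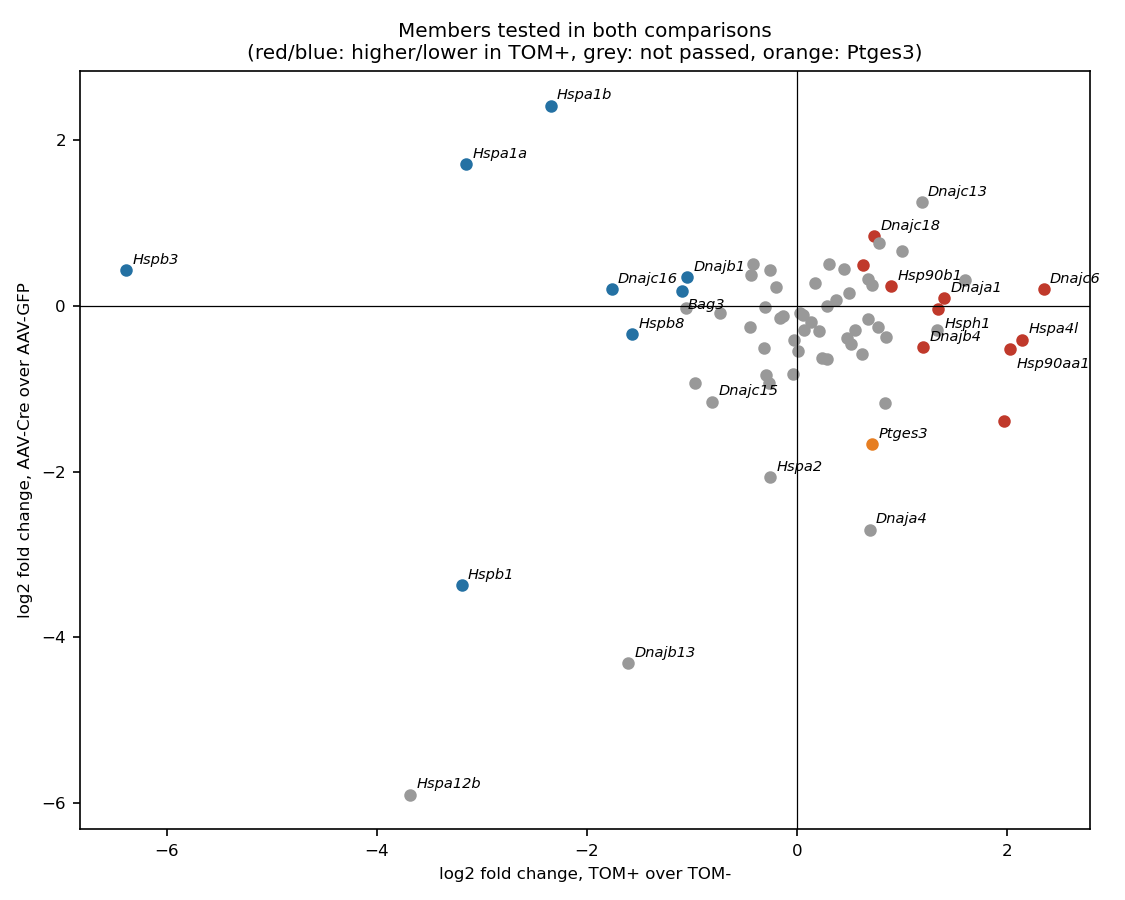
Log2 fold change of TOM+ over TOM- (horizontal) against AAV-Cre over AAV-GFP (vertical) for the members tested in both, with lines at 0. Red and blue mark members that rose or fell in TOM+ and orange marks Ptges3. Hspa1a and Hspa1b are the highest points of the upper left, apart from the cluster near 0, and Hspb1 lies in the lower left.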

How the data were processed

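The authors deposited raw counts, as whole numbers per gene symbol. FastQC, Trim Galore, STAR and featureCounts, without versions, and the mm10 build are named in the submitters' processing notes. Read pairs of the AAV libraries were counted, per the file headers, by gene name with featureCounts 2.0.1 on GENCODE vM30, without strand and without reads that map to several places or genes. How the TOM table was counted is not given in the sources used here. Because vM30 belongs to a later assembly than mm10, gene positions are those the files give, and promoter sequences are RefSeq on GRCm38.p6, with nothing converted. Libraries were made with a low-input SMART-Seq kit and no molecular identifiers, so PCR copies count as reads and every interval or bound covers counting error only. Totals ran from 13506018 to 27827853 counts. The 6 single AAV files equalled their columns in the joint table for all 55809 symbols.

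The 6 libraries of a comparison were fitted together, apart from the other comparison, by edgeR 4.0.16 in R 4.3.3 (TMM scaling, filterByExpr at a minimum count of 10, quasi-likelihood test, two-sided, Benjamini-Hochberg over all genes tested, threshold 0.05). CPM used TMM-scaled totals, and RPKM also the exon length in the count table. The SE of a log2 fold change came from the F statistic. Alternatives were RLE factors, no scaling, no filter, a replicate block, DESeq2 1.42.0, mitochondrial genes removed and each library left out. The fits were tested on simulated data, in which most of the changes put in were not called. A member that did not pass may therefore still differ. The members and lists were chosen with earlier results of these data known. Genes are named where they were added by name, were among the 10 largest called changes in a direction, led their subfamily in RPKM, were listed as heat-inducible or passed in both comparisons, with the top 2 genes of each other list. The values of 1 member with few counts, which stays in every count, are not reported here. Of the 78 members, 29 share exon bases with another symbol.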

Additional observations from a re-analysis of the deposited data

How the results depend on the processing

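No member that passed changed sign under any alternative run. In the TOM comparison 7 of the 18 calls held with each library left out (Hspa1a, Hspa1b, Dnajb1, Hsp90aa1, Hspa4l, Dnaja1 and Dnajb4). Leaving out 1 library gave 4 to 8 members higher and 3 to 8 lower, against 10 and 8, and 630 to 1482 genes higher and 881 to 2065 lower over all genes. DESeq2 called 2511 genes higher against 1589 with edgeR. Without scaling factors the median of all genes moved by 0.26 on the log2 scale, and 15 members were higher and 6 lower, with Bag3 and Hspb8 lost (2204 and 1532 over all genes). In the AAV comparison the members higher numbered 2 instead of 1 with RLE factors, without scaling, without the filter and with DESeq2 (Hspa1a added), and 0 to 1 with a library left out. Members lower numbered 4 without the filter and 7 with DESeq2, instead of 0, and 0 with any library left out. Over all genes, those higher numbered 160 without the filter, 583 with DESeq2 and 0 to 47 with a library left out, against 97. Those lower numbered 552, 1301 and 0 to 253, against 303. Without scaling the AAV median moved by 0.16. The cause of these differences was not tested.

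Replicate numbers were shared between groups, and no label says whether same-numbered libraries are pairs. Deviations of same-numbered libraries correlated at -0.03, -0.01 and 0.02 in the TOM and at -0.07, -0.07 and -0.06 in the AAV comparison, and not every library correlated best with its own number. With the replicate block, 5 members were higher and 4 lower in TOM+ (899 and 1088 over all genes), and in the AAV comparison 0 members and 0 genes passed in either direction.

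The sign changed under some alternative for 15 of 69 members in the TOM and 18 of 69 in the AAV comparison, none of which had passed. Those with values in the text follow. The values are log2 fold changes, and a range is that over the fits that leave out 1 library each. Hsf1 in the TOM comparison was at 0.099 without scaling. Hspa8 in the TOM comparison was at 0.0641 without scaling. Stip1 in the TOM comparison was at -0.0221 to 0.169 with a library left out. Hspa5 in the TOM comparison was at 0.00764 without scaling. Hspa4 in the TOM comparison was at 0.238 without scaling and -0.216 to 0.277 with a library left out. Hspa2 in the TOM comparison was at 0.00823 without scaling. Dnaja1 in the AAV comparison was at -0.0224 to 0.25 with a library left out. Dnajc16 in the AAV comparison was at -0.423 with the replicate block and -0.571 to 0.782 with a library left out. Hsf1 in the AAV comparison was at -0.509 to 0.069 with a library left out. Hsp90ab1 in the AAV comparison was at 0.0427 with RLE factors, 0.165 without scaling, 0.053 with DESeq2 and -0.131 to 0.222 with a library left out. Hspb3 in the AAV comparison was at -0.264 to 1.23 with a library left out. Hspd1 in the AAV comparison was at 0.000624 without scaling. Hsph1 in the AAV comparison was at 0.000129 with RLE factors, 0.0944 without scaling, 0.0291 with the replicate block, 0.00835 with DESeq2 and -0.189 to 0.378 with a library left out.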

Other observations

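Members with few counts were mostly outside the tests. Dnajb8 had 0 counts in all 12 libraries. In the TOM libraries Dnajb7, Dnajb8, Dnajc22, Dnajc5b, Dnajc5g, Hspa1l, Hspb7 and Hspb9 did not pass the count filter, and the same genes other than Dnajc22 did not pass it in the AAV libraries. Hspa1l, the third HSP70 gene of the Hspa1a cluster, had 56, 0 and 3 counts in TOM+ and 3, 0 and 0 in TOM- libraries, so its difference rested on 1 library. Hspa12b, an HSP70 relative known from endothelium, had 0, 0 and 3 counts in AAV-Cre and 14, 106 and 73 in AAV-GFP libraries. The ratio was 61.6-fold in favour of AAV-GFP, with an exact 95% interval of 20.8 to 301 that covers counting error only. It also had 0, 0 and 37 counts in TOM+ and 121, 74 and 141 in TOM- libraries, so it was on the lower side in the same groups as the endothelial markers. Dnajc22 had 0, 0 and 0 counts in AAV-Cre and 22, 11 and 11 in AAV-GFP libraries, at least 14.0-fold higher in AAV-GFP against 3 counts over the group. These genes were chosen after their values were seen, and none passed edgeR's test.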
